A study of Mus musculus with 2 samples.

Results

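Heat shock proteins and J-domain chaperones were described in the non-parenchymal cells of a normal and a fibrotic mouse liver. The members were all gene rows whose symbols begin with Hspa and a digit or with Hsp90, the symbols Hspb or Dnaja, Dnajb and Dnajc followed by a number, and Hspd1, Hspe1 and Hsph1. There were 69 members among the 21722 genes listed in at least 1 library, and 68 of them were listed in each library. The members gave 419800 of the 44062632 unique molecular identifiers (UMIs, each standing for 1 captured transcript) in the normal library and 680340 of the 53288463 UMIs in the fibrosis library.

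Both livers were from male C57BL/6 mice of 8 weeks at the start. The normal control mouse received olive oil and the fibrosis mouse received carbon tetrachloride (CCl4), a hepatotoxin, by intraperitoneal injection 2 times a week for 6 weeks. The liver was digested by collagenase perfusion, hepatocytes were spun away at low speed, and the remaining cells were profiled with droplet-based 3′ sequencing. There was 1 library in each group and the labels name no further mouse, so a difference between normal and fibrosis is a difference between a pair of libraries, with no replicate check and no p-value, and the intervals given here cover counting error only.

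Heat shock proteins bind unfolded or partly folded proteins and keep them from aggregating. The Hsp70 family (Hspa genes) works in cycles of ATP hydrolysis that are started by J-domain co-chaperones (Dnaja, Dnajb and Dnajc genes) and reset by nucleotide exchange factors such as Hsph1, and Hsp90 proteins take over later folding steps of kinases and receptors. Some members are made at a steady rate, some are induced in the cytosol by heat shock factor 1 and some in the endoplasmic reticulum (ER) by the unfolded protein response. In the liver, isolating cells by enzymatic digestion is itself known to induce stress genes, including Hspa1a and Hspa1b, during the procedure.

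The promoters of 5 members are shown because the results turn on these genes and because they hold the binding motifs of the cytosolic and the ER stress responses. Each sequence runs from 250 bases before to 50 bases after the annotated start in RefSeq GRCm38.p6, 5′ to 3′ on the strand of the gene, with the matches of 1 motif in each window, named after the sequences, in capitals. The windows were Hspa1a at chr17:34972107-34972406 on the minus strand, Hspa1b at chr17:34959189-34959488 on the minus strand, Hsph1 at chr5:149636287-149636586 on the minus strand, Hspa5 at chr2:34771840-34772139 on the plus strand and Hsp90b1 at chr10:86705395-86705694 on the minus strand.
Hspa1a: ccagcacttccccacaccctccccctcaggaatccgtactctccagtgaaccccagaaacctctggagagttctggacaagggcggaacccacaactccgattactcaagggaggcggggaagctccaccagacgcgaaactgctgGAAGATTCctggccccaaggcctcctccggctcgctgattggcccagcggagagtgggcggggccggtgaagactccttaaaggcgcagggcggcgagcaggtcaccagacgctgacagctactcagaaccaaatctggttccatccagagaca
Hspa1b: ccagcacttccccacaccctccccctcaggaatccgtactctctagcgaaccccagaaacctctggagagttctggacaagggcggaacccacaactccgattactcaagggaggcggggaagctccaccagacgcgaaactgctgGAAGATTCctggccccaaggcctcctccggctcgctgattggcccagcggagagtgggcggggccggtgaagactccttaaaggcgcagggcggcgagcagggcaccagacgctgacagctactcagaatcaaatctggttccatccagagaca
Hsph1: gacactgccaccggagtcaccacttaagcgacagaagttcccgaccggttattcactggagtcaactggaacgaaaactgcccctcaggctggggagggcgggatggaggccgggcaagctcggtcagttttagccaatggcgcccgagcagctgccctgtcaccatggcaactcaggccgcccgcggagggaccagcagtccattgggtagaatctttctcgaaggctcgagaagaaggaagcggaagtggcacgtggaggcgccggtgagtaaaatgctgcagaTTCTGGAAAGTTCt
Hspa5: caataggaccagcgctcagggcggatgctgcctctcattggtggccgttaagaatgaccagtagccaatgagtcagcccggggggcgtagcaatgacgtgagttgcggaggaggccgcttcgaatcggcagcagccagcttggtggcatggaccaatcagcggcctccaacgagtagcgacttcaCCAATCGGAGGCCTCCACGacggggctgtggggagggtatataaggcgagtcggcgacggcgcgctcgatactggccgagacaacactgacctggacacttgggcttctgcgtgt
Hsp90b1: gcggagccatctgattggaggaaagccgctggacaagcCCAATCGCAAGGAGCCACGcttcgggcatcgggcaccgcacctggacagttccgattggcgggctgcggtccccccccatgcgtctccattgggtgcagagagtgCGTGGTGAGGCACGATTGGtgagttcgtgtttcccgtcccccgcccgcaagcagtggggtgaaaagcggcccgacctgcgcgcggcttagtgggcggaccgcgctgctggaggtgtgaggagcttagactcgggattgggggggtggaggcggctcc

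The Hspa1a and Hspa1b windows differed at 4 of 300 bases. The capitals in both mark a heat shock element of 2 units, GAANNTTC or TTCNNGAA, which began 104 bases before the start. In the Hsph1 window, 1 of 2 for this gene, the capitals mark a heat shock element of 3 units, GAANNTTCNNGAA or TTCNNGAANNTTC, which contains the 2-unit motif, and a further 2-unit match that began 33 bases before the start is in lower case. In the Hspa5 and Hsp90b1 windows they mark the ER stress response element, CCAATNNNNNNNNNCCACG or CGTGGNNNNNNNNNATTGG, with 1 match in Hspa5 and 2 in Hsp90b1.

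All motifs were searched on both strands of the promoters of 56 members. The 3-unit heat shock element was found in 4 members, namely Dnajb6, Hspd1, Hspe1 and Hsph1, which is 7.14% of the 56 members against 0.662% of 27025 genes with a promoter. The windows of Hspd1 and Hspe1 overlap, so the same elements were counted for both of these genes. The 2-unit element was found in 14 members (25%) and in 17% of all genes. The ER stress response element was found in Dnajc3, Hsp90b1 and Hspa5, which is 5.36% of these members against 0.137% of all genes. A match is a description of the letters in this window and not a test of binding.

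Hspa1a and Hspa1b are neighbouring genes that code for the inducible cytosolic Hsp70. Their transcripts share much sequence: 1419 of the 2878 windows of 90 bases in the Hspa1a transcript (49.3%) were also present in that of Hspa1b. In the last 500 bases, from which 3′ libraries take most reads, 0 of 411 such windows were shared. The count of each gene is given below where the 2 differ, and the sum of both is called the pair.

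The cells were grouped into classes by clustering with the members held out, and each class was named from marker genes. The normal library had 7471 cells and the fibrosis library 6132 cells after removal of cells with over 10% mitochondrial UMIs, at a median of 4226 and 5776 UMIs per cell, and 13 classes had at least 50 cells in both. They were endothelial-like (sinusoidal), vessel-endothelial-like, hepatic stellate cell or myofibroblast (HSC/MF)-like, portal fibroblast or mesothelial (PF/mesothelial)-like, Kupffer-cell-like, dendritic-cell (DC)-like, plasmacytoid-DC (pDC)-like, NK/T-cell-like, B-cell-like, neutrophil-like, cholangiocyte-like, hepatocyte-like and erythroid-like cells. Some labels were weakly borne out. The fibrosis erythroid-like cells had a median of 1010 UMIs, haemoglobin at 103 UMIs per 10000 against 3796 in the normal ones, and endothelial markers at 131 UMIs per 10000. The DC-like class of the normal library was also led by the myeloid granule genes Mpo, Prtn3 and Elane, and HSC/MF-like cells carried endothelial-marker UMIs at 137 per 10000 in normal and 114 in fibrosis. The NK/T-cell-like class pooled clusters of 594 and 402 cells in normal, led by Klra4 and Cxcr6. In fibrosis it pooled clusters of 320 and 110 cells, led by Trbc2 and Gzma. The part of this unlike make-up in the ratios of the class was not tested. The libraries shared 15 cell barcodes.

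A level is the number of UMIs of a gene per 10000 UMIs of its class, with an exact Poisson 95% interval. A ratio is fibrosis over normal, with an exact conditional 95% interval, and members are counted as higher or lower where the ratio passed 2-fold and the gene was over a floor of a mean level of 0.1 and 50 UMIs in the class. Of the 69 members, 53 were over this floor over all cells and 60 in at least 1 class. The 20 most abundant members held 85.1% of the member UMIs in normal and 88.2% in fibrosis. Captured 3′ ends do not scale with transcript length, but genes can differ in how well they are captured, so levels of different genes are set side by side as captured UMIs. The median ratio of all genes was 1.03 to 1.25 in 12 classes and 2.01 in erythroid-like cells, where the haemoglobin UMIs of the normal library take a large part of the total.

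The level of the pair was lower in the fibrosis library in 13 of 13 classes, and that of Hsph1, a member of the same cytosolic stress group, was higher in 13 of 13. Over all cells, Hspa1a was at 4.59 in normal and 1.24 in fibrosis, and Hspa1b at 4.85 and 1.43. The level of Hsph1 was 0.835 in normal and 1.53 in fibrosis. The pair ratio was therefore 0.282 [0.277, 0.288] and the Hsph1 ratio 1.84. Put per molecule, 11.3 UMIs of the pair were captured for each Hsph1 UMI in the normal library and 1.74 in the fibrosis library.

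**Figure D1:**
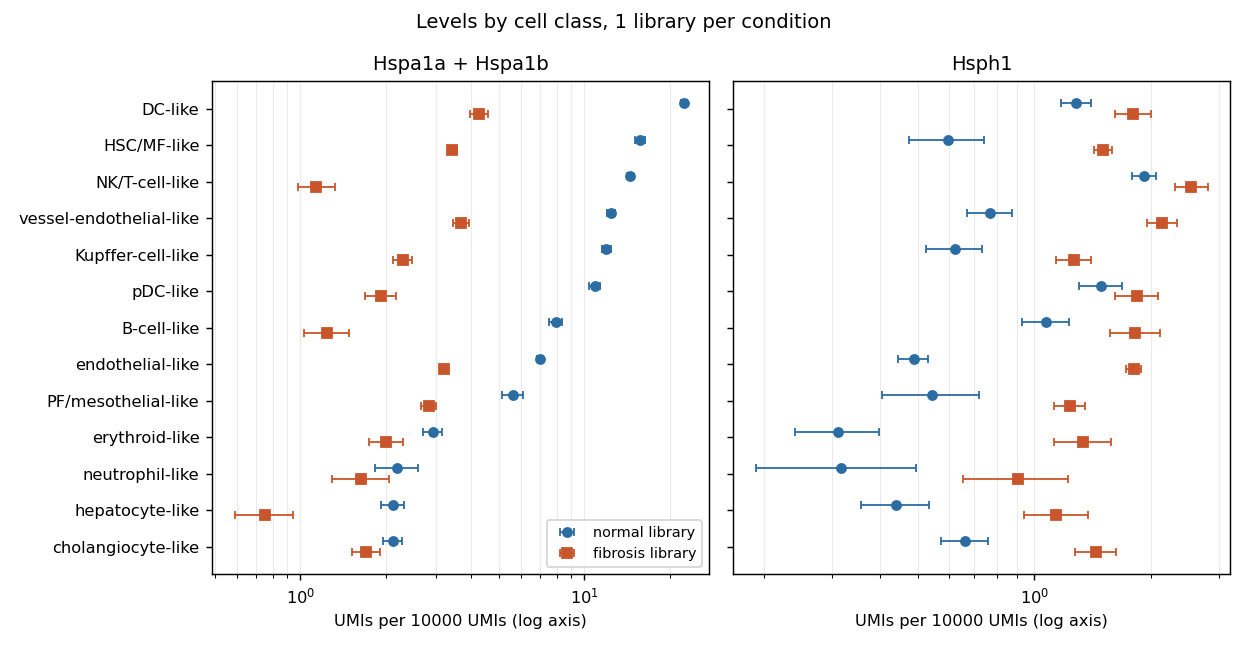
UMIs per 10000 UMIs of the class (log axis) for the Hspa1a and Hspa1b pair and for Hsph1 in 13 classes, ordered by the normal level of the pair, with points for the normal and fibrosis libraries and bars for exact Poisson 95% intervals. The fibrosis point of the pair is below the normal point in every class shown, and that of Hsph1 is above it in every class shown.

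In the normal library the pair ranged 10.6-fold between classes. DC-like cells had the highest level, 22.5 [22.0, 22.9], followed by HSC/MF-like cells at 15.7 [15.1, 16.4], NK/T-cell-like cells at 14.5 [14.2, 14.9], vessel-endothelial-like cells at 12.4 [12.0, 12.8] and Kupffer-cell-like cells at 12.0 [11.5, 12.4]. Then came pDC-like cells at 10.9, B-cell-like cells at 7.93, endothelial-like cells at 6.99 [6.83, 7.15] and PF/mesothelial-like cells at 5.60. Erythroid-like cells were at 2.93, and neutrophil-like, hepatocyte-like and cholangiocyte-like cells at 2.20, 2.12 and 2.12. The intervals of the neighbours vessel-endothelial-like and Kupffer-cell-like overlapped, as did those of the 3 lowest classes. Monocyte/macrophage-like cells, of which the normal library held 43, were at 23.6.

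In the fibrosis library the range was narrower, from 0.750 in hepatocyte-like cells to 4.27 [3.98, 4.58] in DC-like cells. The DC-like level rests on 1 cell with 258 of the 795 pair UMIs, and without that cell it was 2.90, under the next 3 classes. Vessel-endothelial-like cells were at 3.69 [3.44, 3.95], HSC/MF-like cells at 3.43 [3.31, 3.55], endothelial-like cells at 3.21 [3.11, 3.32] and PF/mesothelial-like cells at 2.83. Kupffer-cell-like cells followed at 2.30, erythroid-like cells at 2.01, pDC-like cells at 1.92, cholangiocyte-like cells at 1.71 and neutrophil-like cells at 1.64. B-cell-like cells were at 1.24 [1.03, 1.49] and NK/T-cell-like cells at 1.14 [0.980, 1.32].

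Free RNA in droplets gives every class a low level of abundant transcripts. Erythroid-like cells were taken as cells that should hold few of these transcripts, although in the fibrosis library this class also carried endothelial markers and immunoglobulin genes and may hold other cells. Levels are compared as shares, at a mean of 1582 UMIs per fibrosis erythroid-like cell against 20008 per cholangiocyte-like cell. Shares at such unlike depths cannot show how much of a class is free RNA. A level not read as expression is left undecided here and not taken as absent. The erythroid-like pair level of 2.01 in the fibrosis library, at a median of 1010 UMIs per cell, was above that of the pDC-like, cholangiocyte-like, neutrophil-like, B-cell-like, NK/T-cell-like and hepatocyte-like classes. By share of UMIs, the fibrosis levels of these 6 classes are at or under this background and are not read as expression. In the normal library, where erythroid-like cells were at 2.93 with a median of 2300 UMIs, the same held for neutrophil-like, hepatocyte-like and cholangiocyte-like cells. The remaining normal levels, of 5.60 or more, were above that value. Haemoglobin was at a level of 3796 in the normal erythroid-like cells and 103 in the fibrosis ones. It takes up a large part of the normal total and lowers the share of other genes there. The background values of the libraries are therefore not alike, and the normal one is understated. Whether the normal levels nearest to it, such as the PF/mesothelial-like 5.60, stay above a value without haemoglobin was not tested.

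Of the classes above this background in both libraries, the ratio of the pair was 0.190 in DC-like cells (0.130 without the top cell of each library) and 0.192 [0.176, 0.209] in Kupffer-cell-like cells, where it was 0.42 as UMIs per cell and where the fibrosis interval, 2.12 to 2.48, overlapped that of the erythroid-like background, 1.75 to 2.30. HSC/MF-like cells had 0.218 [0.207, 0.231], or 0.440 as UMIs per cell, and vessel-endothelial-like cells 0.297 [0.275, 0.320]. The sinusoidal endothelial-like class, at 0.460 [0.442, 0.479], and PF/mesothelial-like cells, at 0.506 [0.454, 0.563], had ratios nearer to 1. In 3 classes above background in the normal library alone, the captured levels gave 0.0785 [0.0673, 0.0911] in NK/T-cell-like, 0.157 [0.129, 0.189] in B-cell-like and 0.177 in pDC-like cells, and these ratios rest on fibrosis levels that are not read as expression. In the remaining classes, whose pooled levels were at background in both libraries, the ratios were 0.354 in hepatocyte-like, 0.687 in erythroid-like, 0.748 in neutrophil-like and 0.809 in cholangiocyte-like cells. The normal hepatocyte-like class pools a shallow cluster of 606 cells with the pair at 3.74, above the erythroid-like 2.93, and a deeper one of 127 cells with the pair at 0.777, against 0.750 in the fibrosis cluster, so its ratio depends on the mix of clusters. The normal Kupffer-cell-like class likewise pools a deep cluster of 238 cells with the pair at 13.2 and a shallow one of 207 cells at 7.71. Its fibrosis cluster was at 2.30, so that ratio depends on the mix too. Counted as UMIs per cell, without dividing by the class total, the pair was higher in fibrosis in cholangiocyte-like (1.22) and PF/mesothelial-like cells (1.03) and lower in the other 11 classes.

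The genes of the pair moved together but not equally. In endothelial-like cells Hspa1a was at 3.35 [3.24, 3.46] in normal and 1.39 [1.33, 1.47] in fibrosis (ratio 0.416 [0.392, 0.442]), and Hspa1b at 3.64 and 1.82 (0.5003 [0.474, 0.528]). In NK/T-cell-like cells Hspa1a was at 5.73 and 0.357 (0.0623) and Hspa1b at 8.81 and 0.784 (0.0890). Hspa1a therefore had the lower ratio in endothelial-like cells, and the NK/T-cell-like ratios rest on fibrosis levels at background. In Kupffer-cell-like cells the order was the other way, with 0.201 for Hspa1a (6.47 and 1.30) and 0.182 for Hspa1b (5.48 and 0.997), and those intervals overlapped.

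In HSC/MF-like cells Hspa1a was at 8.16 and 1.72 (0.211) and Hspa1b at 7.55 and 1.71 (0.226). In vessel-endothelial-like cells Hspa1a was at 6.16 and 1.46 (0.237) and Hspa1b at 6.25 and 2.23 (0.357). In DC-like cells Hspa1a was at 11.9 and 1.80 (0.151) and Hspa1b at 10.6 and 2.47 (0.234). In these 3 classes both genes were at similar levels in the normal library, and in the vessel-endothelial-like cells of the fibrosis library Hspa1b was the higher one. The split between the genes in fibrosis DC-like cells was not computed without the cell that holds 258 of the pair UMIs. B-cell-like cells had Hspa1a at 3.36 and 0.561 (0.167) and Hspa1b at 4.57 and 0.683 (0.149), pDC-like cells 4.84 and 0.796 (0.165) and 6.06 and 1.13 (0.186), and PF/mesothelial-like cells 2.55 and 1.25 (0.492) and 3.05 and 1.58 (0.517).

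Among the classes whose pooled levels were at background in both libraries, hepatocyte-like cells had Hspa1a at 1.07 and 0.185 (244 and 18 UMIs) and Hspa1b at 1.05 and 0.565. Cholangiocyte-like cells had Hspa1a at 1.05 and 0.489 and Hspa1b at 1.07 and 1.22, the 1 class in which the Hspa1b ratio, 1.14 [0.960, 1.36], was over 1 with an interval that held 1. Neutrophil-like cells had 1.10 and 0.8004 for Hspa1a and 1.10 and 0.843 for Hspa1b, and erythroid-like cells 1.35 and 1.12 for Hspa1a and 1.58 and 0.888 for Hspa1b. The interval of the ratio was under 1 in 11 classes for Hspa1a and in 11 for Hspa1b. Of the 3618 genes over the floor in every class, 3.62% were lower in fibrosis in all 13 classes and 17.4% were higher in all 13. Among the 27 members over the floor in every class, Hspa1a was the 1 member in the first set, and 10 were in the second, namely Hsph1, Hspa5, Hsp90b1, Hsp90ab1, Hspa9, Dnaja2, Dnajb6, Dnajc3, Dnajc10 and Dnajc13. Under the other scalings Hsph1, Hsp90b1, Hsp90ab1, Dnajb6 and Dnajc10 stayed higher in all 13 classes, and the remaining 5 were lower in at least 1 class under at least 1 of them, as was Hspa1a higher per cell in PF/mesothelial-like cells (1.001).

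The share of cells with the pair was lower in fibrosis in 12 of 13 classes, with overlapping intervals in neutrophil-like, erythroid-like and PF/mesothelial-like cells, and it was 13.6% and 17.8% in cholangiocyte-like cells, also with overlapping intervals. After each cell was thinned to 1000 UMIs, at least 1 UMI of the pair was found in 68.7% of DC-like cells of the normal and 19.8% of the fibrosis library. The corresponding shares were 67.8% and 23.6% of HSC/MF-like cells, and 49.9% and 8.84% of NK/T-cell-like cells. Endothelial-like cells had 36.5% and 23.9% after thinning but 70.8% and 72.2% without it, since the fibrosis cells were more deeply covered. Erythroid-like cells, the class taken for background, had 22.5% and 18.4%, with 332 of the 648 fibrosis cells deep enough to thin. In the fibrosis library the shares of NK/T-cell-like (8.84%), B-cell-like (7.42%), hepatocyte-like (8.27%), pDC-like (11.6%), neutrophil-like (15.7%), PF/mesothelial-like (16.6%) and cholangiocyte-like cells (17.8%) were below this background. The PF/mesothelial-like level of the pair in fibrosis is therefore above background by UMIs and not by share of cells, and the tenth of those cells with the most pair UMIs held 56.7% of them. The pair was unevenly spread over cells: the tenth of endothelial-like cells with the most pair UMIs held 47.9% of them in normal and 38.2% in fibrosis.

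**Figure D2:**
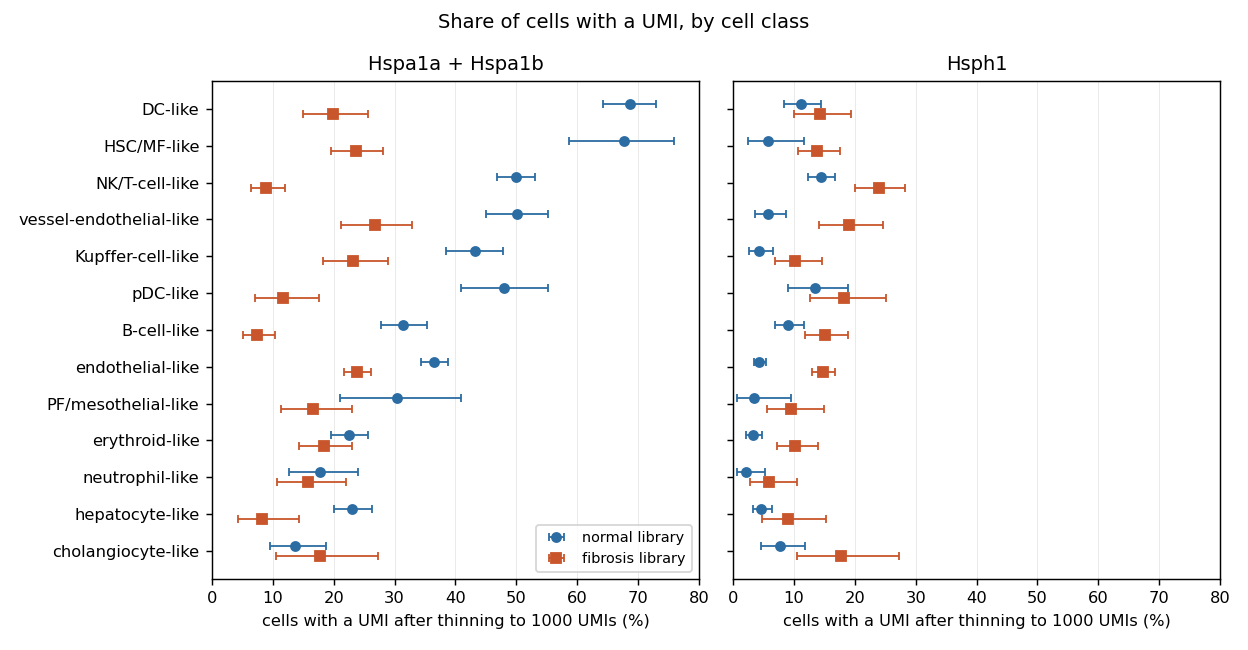
Percent of cells with at least 1 UMI of the pair and of Hsph1 after thinning each cell to 1000 UMIs, by class and library, with exact binomial 95% intervals. In endothelial-like cells the share for the pair goes from 36.5% in the normal to 23.9% in the fibrosis library and that for Hsph1 from 4.30% to 14.8%.

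Hsph1, which codes for an Hsp110 nucleotide exchange factor of Hsp70, was at a lower level than the pair in the normal library and had a different order of classes. NK/T-cell-like cells were highest in both libraries, at 1.93 in normal and 2.55 in fibrosis (ratio 1.32). In endothelial-like cells it was at 0.487 [0.445, 0.532] and 1.81 [1.73, 1.89], a ratio of 3.71 [3.36, 4.10]. In vessel-endothelial-like cells it was at 0.767 and 2.14 (2.79). Endothelial-like cells were thus among the 4 lowest classes for Hsph1 in the normal library and among the 5 highest in the fibrosis library. Their fibrosis level, 1.806, could not be told apart from the 1.804 of DC-like cells, with overlapping intervals.

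In HSC/MF-like cells Hsph1 was at 0.597 and 1.503 (2.52), in PF/mesothelial-like cells at 0.545 and 1.24 (2.27), and in cholangiocyte-like cells at 0.663 and 1.44 (2.18). In Kupffer-cell-like cells it was at 0.623 and 1.26 (2.03), and in neutrophil-like cells at 0.316 and 0.906 (2.86). Of the lymphoid and dendritic classes, B-cell-like cells were at 1.08 and 1.83 (1.70), DC-like cells at 1.28 and 1.80 (1.41), and pDC-like cells at 1.49 and 1.84 (1.24 [1.03, 1.48]). The 4 classes with the highest normal levels, NK/T-cell-like cells among them, thus had the 4 lowest ratios. Hepatocyte-like cells were at 0.439 and 1.14 (2.60), and erythroid-like cells at 0.312 and 1.34 (4.29). That last fibrosis level was above those of the Kupffer-cell-like, PF/mesothelial-like, hepatocyte-like and neutrophil-like classes, so the fibrosis levels of these 4 classes are not read as expression. Hsph1 was higher in 13 of 13 classes also per cell and after centring on the median of all genes.

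Set against each other within a class, the pair gave 14.3 [13.1, 15.7] UMIs for each Hsph1 UMI in normal endothelial-like cells and 1.78 [1.69, 1.88] in fibrosis ones. HSC/MF-like cells gave 26.3 and 2.28, Kupffer-cell-like cells 19.2 and 1.82, and vessel-endothelial-like cells 16.2 and 1.72. The fibrosis Hsph1 level of Kupffer-cell-like cells, 1.26, was under the 1.34 of erythroid-like cells, so that quotient is not read as expression. In the fibrosis library Hsph1 outnumbered the pair in the lymphoid classes of B-cell-like cells and of NK/T-cell-like cells, with 0.682 and 0.448 pair UMIs for each Hsph1 UMI against 7.38 and 7.55 in the normal library. The pair levels behind these last quotients in fibrosis are at background, so the order of the genes is not read as expression. The quotient does not depend on the class total.

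The other inducible cytosolic members divided between these patterns. Dnajb1, the J-domain partner of inducible Hsp70, was at 2.36 in normal and 0.656 in fibrosis NK/T-cell-like cells (0.278), at 1.44 and 0.581 in B-cell-like cells (0.404), at 1.49 and 0.569 in DC-like cells (0.382) and at 1.71 and 0.586 in pDC-like cells (0.343). In endothelial-like cells it was at 0.706 and 0.696, with a ratio of 0.986 [0.890, 1.09], so a difference was not detectable there. Its 4 lowest ratios were therefore those of the lymphoid and dendritic classes, and its ratio was under 1 in 9 of 13 classes, in 11 after centring on all genes and in 6 per cell.

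Hsp90aa1, the stress-inducible cytosolic Hsp90, was at 2.24 in normal and 5.98 in fibrosis endothelial-like cells (2.68) and was higher in 12 of 13 classes. Its highest level was in fibrosis hepatocyte-like cells, 16.0 against 2.63 in the normal library (6.08), and the tenth of the 146 fibrosis cells with the most held 67% of these UMIs. In pDC-like cells it was at 9.31 and 8.65 (0.929). Dnaja1, a J-domain partner of Hspa8, was at 3.79 and 6.47 in endothelial-like cells (1.71), while NK/T-cell-like cells had 5.90 and 5.21 (0.883). That last fibrosis level was under the 5.61 of erythroid-like cells and is not read as expression. Dnajb4 was at 0.524 and 0.467 in endothelial-like cells (0.892). The 7 inducible cytosolic members thus held genes of both directions in endothelial-like cells, and their summed level was 14.7 in normal and 18.6 in fibrosis.

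**Figure D3:**
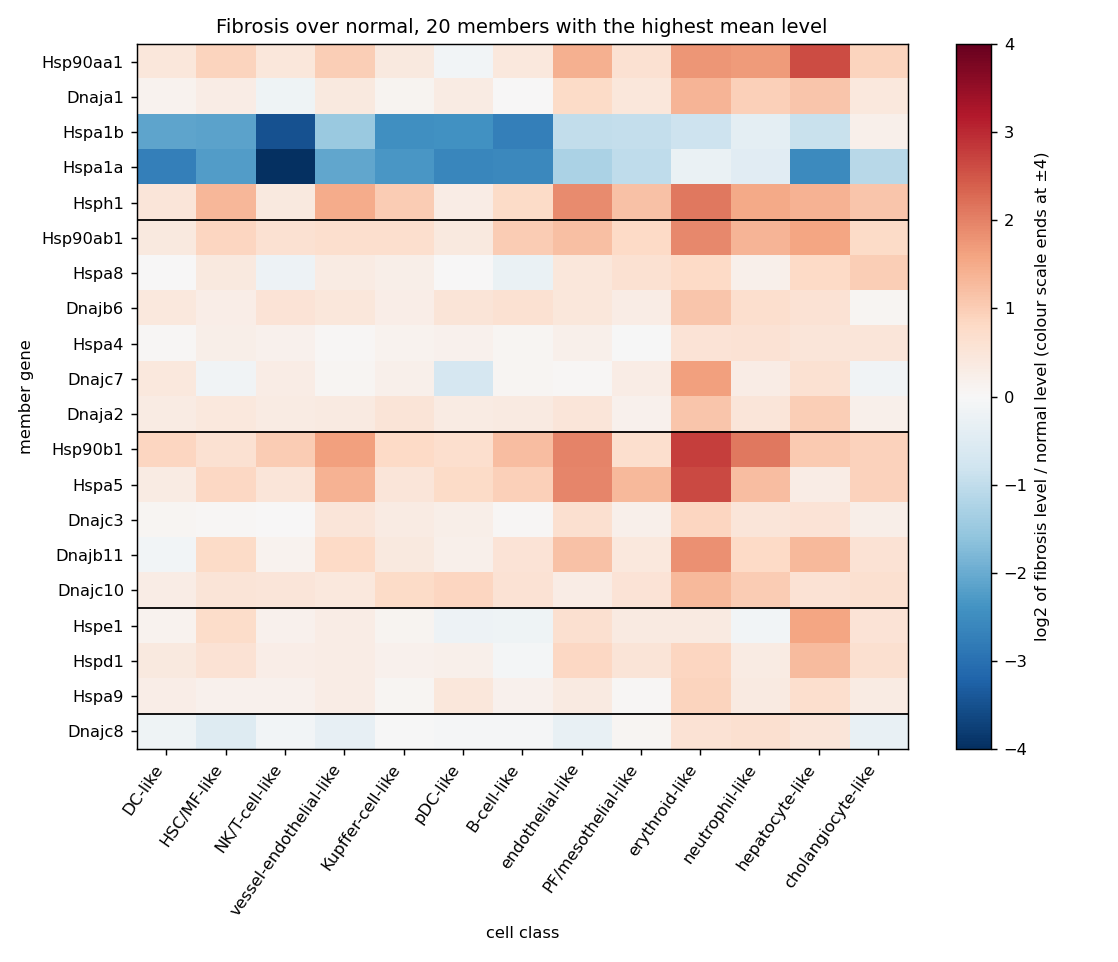
Log2 of fibrosis over normal level for the 20 members with the highest mean level (rows, grouped by role) in 13 classes (columns), with colours limited to 4 in both directions. The rows of Hspa1a and Hspa1b show lower levels in fibrosis in nearly every class, and those of Hsph1, Hspa5, Hsp90b1 and Hsp90ab1 higher levels in every class.

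The constitutive cytosolic members were the most abundant together with the ER chaperones. Hsp90ab1, the steady cytosolic Hsp90, was at 11.8 in normal and 20.5 in fibrosis over all cells (1.73), and its ratio was over 1 in 13 of 13 classes. It was at 9.39 and 21.8 in endothelial-like cells (2.32) and at 16.7 and 25.4 in NK/T-cell-like cells, its highest class in fibrosis. Fibrosis levels of Hsp90ab1 in Kupffer-cell-like (19.4), hepatocyte-like (21.0) and neutrophil-like cells (15.2) were under that of erythroid-like cells and are not read as expression. Those of DC-like (22.0) and pDC-like cells (22.9) were above it. Hspa8, the constitutive Hsp70 that also uncoats clathrin vesicles, was at 14.1 and 16.7 over all cells and was highest in DC-like cells, at 27.3 and 27.7. Hspa8 ratios lay on both sides of 1, with 11.0 and 15.0 in endothelial-like cells (1.37), 8.97 and 17.9 in cholangiocyte-like cells (1.999), 13.5 and 11.1 in B-cell-like cells (0.824) and 19.3 and 16.8 in NK/T-cell-like cells (0.868). The fibrosis level in B-cell-like cells was under the 11.4 of erythroid-like cells and is not read as expression.

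Hspa4, an Hsp110 relative of Hsph1, was at 0.746 to 1.68 over the classes in the normal and 1.09 to 1.75 in the fibrosis library, with ratios of 0.980 to 1.5. Dnajb6 was at 1.04 to 1.95 and 1.49 to 2.83, and Dnaja2 at 0.703 to 1.49 and 1.34 to 2.003. Dnajc7, which binds Hsp70 and Hsp90 through TPR repeats, stood out by class: pDC-like cells were highest at 7.67 in normal and 4.85 in fibrosis (0.633), against normal levels as low as 0.510 in other classes. The summed level of the 9 constitutive members in endothelial-like cells was 26.3 in normal and 44.2 in fibrosis.

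The summed level of the ER members was higher in the fibrosis library in each class, and it was highest in fibrosis in endothelial-like cells. Hspa5, the ER Hsp70 also called BiP, was at 5.86 [5.71, 6.01] in normal and 22.6 [22.3, 22.9] in fibrosis endothelial-like cells, a ratio of 3.86 [3.75, 3.97]. Hsp90b1, the ER Hsp90 also called GRP94, was at 6.45 [6.30, 6.61] and 25.8 [25.5, 26.1], a ratio of 3.99 [3.89, 4.10]. In the normal library endothelial-like cells were among the lower classes for both genes, and in the fibrosis library they were the highest of the 13 for both. Of the 9123 genes over the floor in endothelial-like cells, 97 had a higher ratio than Hspa5, 89 a higher ratio than Hsp90b1 and 104 a higher ratio than Hsph1.

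**Figure D4:**
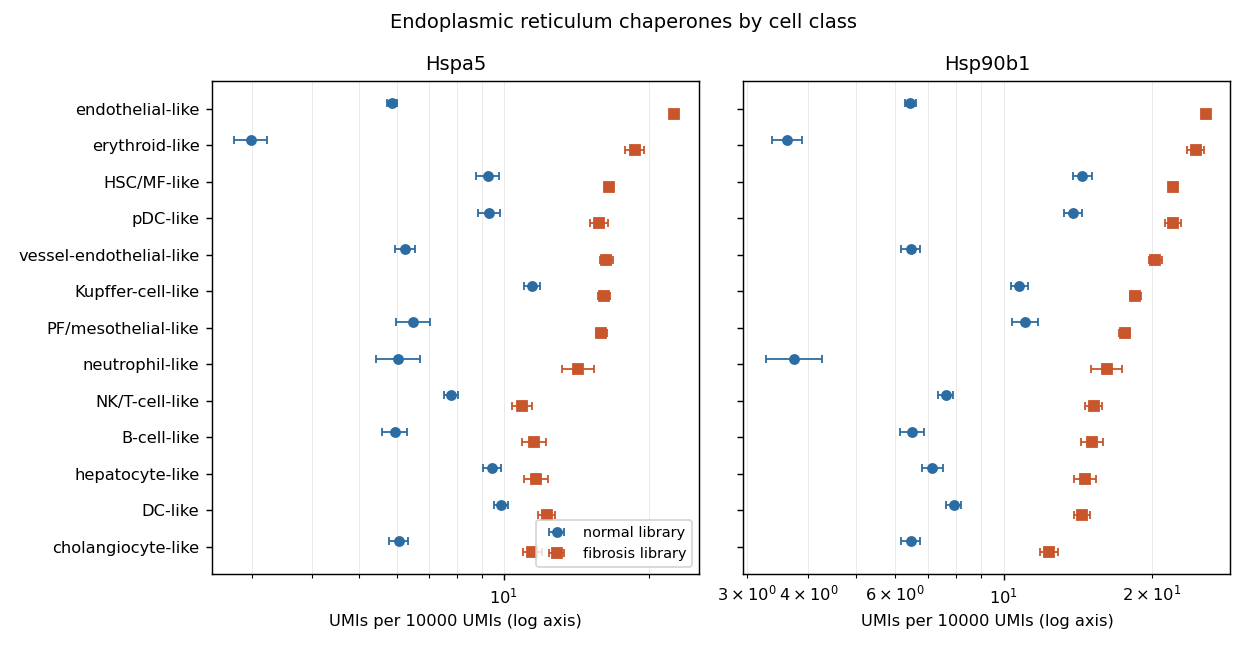
UMIs per 10000 UMIs of the class for Hspa5 and Hsp90b1 in 13 classes of the normal and fibrosis libraries, ordered by the fibrosis level of Hsp90b1, with exact Poisson 95% intervals. Endothelial-like cells are highest in the fibrosis library for both genes, at 22.6 and 25.8, against 5.86 and 6.45 in the normal library.

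Both genes were higher in fibrosis in 13 of 13 classes, with ratios of 1.235 to 6.28 for Hspa5 and 1.53 to 6.78 for Hsp90b1, and the highest ratio of each was in erythroid-like cells. Vessel-endothelial-like cells had Hspa5 at 6.24 and 16.3 (2.62) and Hsp90b1 at 6.46 and 20.3 (3.15). HSC/MF-like cells had Hspa5 at 9.26 and 16.6 and Hsp90b1 at 14.4 and 22.1 (1.53), and PF/mesothelial-like cells had Hspa5 at 6.47 and 15.9 (2.46). HSC/MF-like cells had the highest normal level of Hsp90b1 among the 13 classes. Their interval, 13.81 to 15.09, overlapped that of pDC-like cells, 13.27 to 14.42. Neutrophil-like cells had Hsp90b1 at 3.75 and 16.2 (4.33). In hepatocyte-like cells Hspa5 was at 9.44 and 11.7 (1.235), which is a log2 difference of 0.30 and turned to -0.020 after centring on the median of all genes. The normal clusters pooled in that class had Hspa5 at 5.13 and 13, so the direction depends on which is set against the fibrosis cluster.

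The fibrosis erythroid-like cells had Hspa5 at 18.7 and Hsp90b1 at 24.6, against 2.98 and 3.62 in the normal ones. These levels were above those of all compared classes except endothelial-like cells, and the erythroid-like levels of Hsp90ab1 (21.5) and Hsp90aa1 (5.88) in fibrosis were also close to those of endothelial-like cells. Endothelial markers were at 131 UMIs per 10000 in these cells against 295 in the endothelial-like cells of the same library. Per 10000 UMIs, the Hspa5 and Hsp90b1 levels of fibrosis classes other than endothelial-like cells are at or under the background taken for the pair. They are not read as expression. At a mean of 1582 UMIs in erythroid-like and 22888 in HSC/MF-like cells, this comparison cannot show what part of them is free RNA. For Hsp90b1 the endothelial-like interval, 25.47 to 26.06, overlapped the erythroid-like one, 23.62 to 25.55. The part of free RNA in the Hsp90 levels was not tested. Over 4 equal groups of endothelial-like cells by mitochondrial share, Hspa5 ranged from 5.23 to 6.17 in the normal and from 20.9 to 23.2 in the fibrosis library.

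Dnajb11, an ER J-domain partner of Hspa5, was at 0.682 in normal and 1.55 in fibrosis endothelial-like cells (2.27), Dnajc3 at 2.62 and 4.06, and Dnajb9 at 0.683 and 1.13. Dnajc10, which reduces disulfide bonds for ER-associated degradation, was at 1.22 and 1.51 in endothelial-like cells and had ratios over 1 in 13 of 13 classes. These 4 J-domain members moved in the same direction as Hspa5 and Hsp90b1 in endothelial-like cells, by less. Hspa13 was at 0.305 and 0.432 there, and Dnajc1, at 0.942 and 0.873 in endothelial-like cells (0.927 [0.847, 1.01]), was highest in cholangiocyte-like cells, at 3.42 and 2.63 (0.769). The summed level of the 8 ER members in endothelial-like cells was 18.8 in normal and 57.9 in fibrosis, and over all cells 25.0 and 45.4. The normal library also held 89 plasma-cell-like cells, antibody-secreting cells with a large ER, in which Hsp90b1 was at 75.2 [73.6, 76.8], Hspa5 at 33.1 [32.1, 34.2], Dnajc3 at 5.63 and Dnajb11 at 3.58, while Hspa8 was at 5.95.

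Hspd1, Hspe1, Hspa9 and Dnajc19, the mitochondrial members named here, had their highest fibrosis levels in hepatocyte-like cells. Hspd1 (Hsp60), which with Hspe1 (Hsp10) forms the mitochondrial chaperonin, was at 4.41 in normal and 10.5 in fibrosis hepatocyte-like cells (2.38), and Hspe1 at 4.26 and 12.6 (2.96). Hspa9, the mitochondrial Hsp70, was at 3.31 and 5.23 there. In endothelial-like cells the differences were smaller, with Hspd1 at 1.70 and 3.00 (1.77) and Hspe1 at 1.92 and 3.00 (1.56). Dnajc19, a J-domain protein of the inner membrane, was lower in 11 of 12 classes and higher in hepatocyte-like cells, at 0.790 and 3.27 (4.13 [3.43, 4.99]), against 0.794 and 0.367 in B-cell-like cells (0.462). As UMIs per cell it was also higher in HSC/MF-like (1.55), Kupffer-cell-like (1.51), cholangiocyte-like (1.33) and PF/mesothelial-like cells (1.31). Hepatocyte-like cells are those left after hepatocytes were spun away, and 733 were in normal and 146 in fibrosis, with the normal cells in a pair of unlike clusters.

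The small heat shock proteins, which hold unfolded proteins without ATP, and the Hspa12 genes were at low levels in most classes. Hspb1 was highest in PF/mesothelial-like cells, at 5.68 and 5.46 (0.962), followed in the normal library by vessel-endothelial-like cells at 2.17 and 1.51 (0.694), and was at 0.465 and 0.744 in endothelial-like cells (1.60). Hspb8, which acts with the co-chaperone Bag3 in autophagy, was at 0.171 and 0.0713 in endothelial-like cells (0.418), at 0.201 and 0.0444 in Kupffer-cell-like cells (0.222, from 47 and 13 UMIs) and at 0.112 and 0.289 in cholangiocyte-like cells (2.58, from 35 and 52 UMIs). Erythroid-like cells had Hspb8 at 0.392 in normal and 0.371 in fibrosis, above all of these Hspb8 levels, which are therefore not read as expression. Hspa12b, an endothelial Hsp70 relative, was highest in vessel-endothelial-like cells, at 1.44 and 1.07 (0.743). Of the remaining small members, Hspb11 and Hspb2 were at a mean level of 0.213 and 0.0743 over all cells of both libraries, and Hspb6, Hspb7 and Hspb9 at 0.0373 or less. Dnajb7 and Dnajb8 gave 1 UMI each in 1 library.

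**Figure D5:**
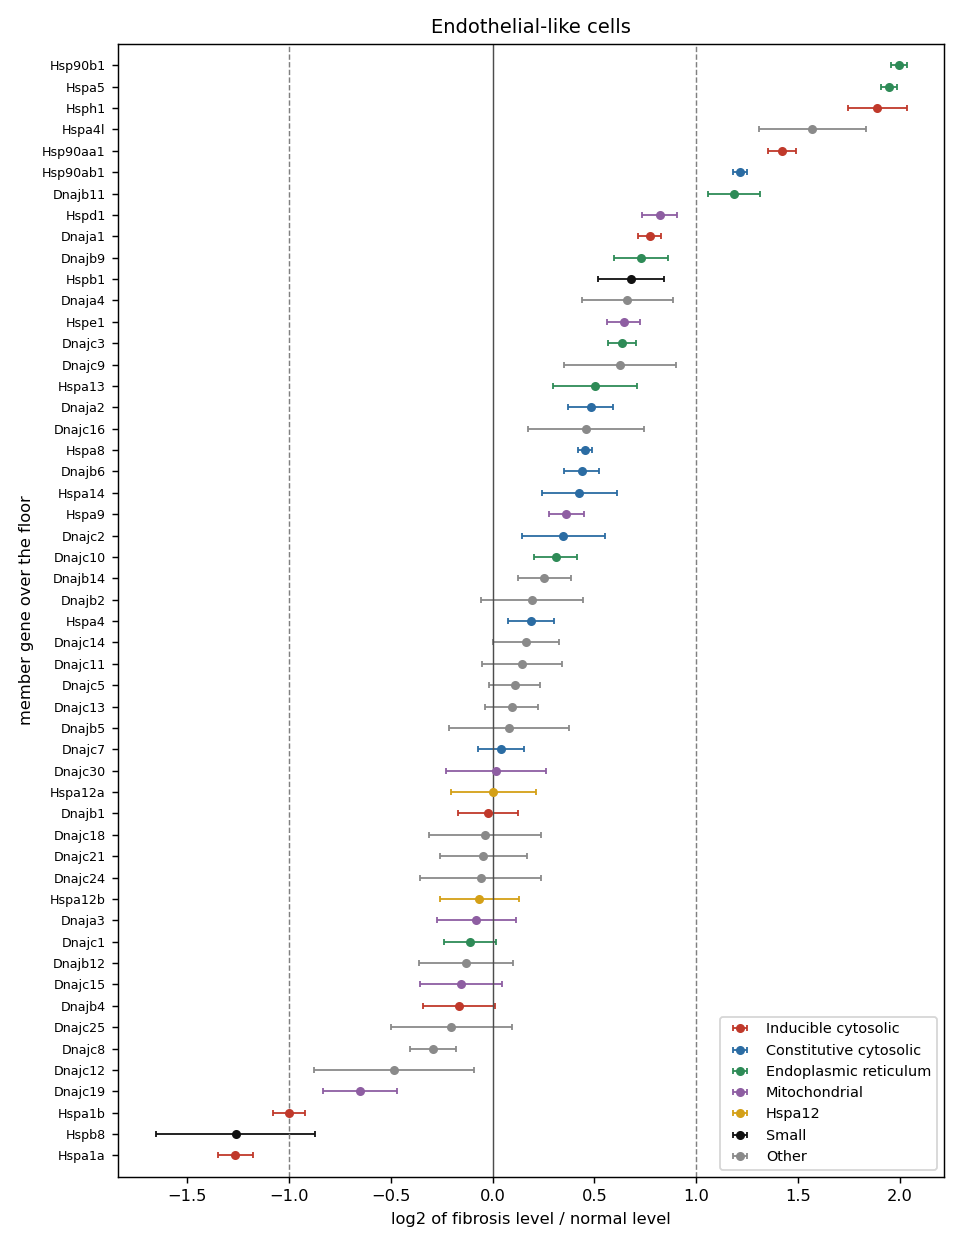
Log2 of fibrosis over normal level in endothelial-like cells for the 52 members over the floor, coloured by role, with exact 95% intervals for counting error and dashed lines at 2-fold. Hsp90b1, Hspa5 and Hsph1 are the highest, and Hspa1a and Hspb8 lie past the line on the lower side.

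In endothelial-like cells, 52 members were over the floor. At least 2-fold higher in fibrosis were 7, namely Hsp90b1, Hspa5, Hsph1, Hspa4l, Hsp90aa1, Hsp90ab1 and Dnajb11, against a background of 4.02% of all genes over the floor. Of these, Hspa4l was at or under the fibrosis level of erythroid-like cells, and Hsp90b1, Hsp90aa1 and Hsp90ab1 were close to it. At least 2-fold lower were 2, Hspa1a and Hspb8, against 5.02% of all genes, and Hspa1b lay just short of the limit. Counted as UMIs per cell, 16 members were 2-fold higher and 0 lower, and with a mitochondrial limit of 5% the lower count was also 0. Hspa4l, another Hsp110 relative, was at 0.156 and 0.463 (2.97). The median log2 ratio of the 52 members was 0.19 and that of all genes 0.062.

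In vessel-endothelial-like cells 3 of 53 members over the floor were 2-fold higher (Hsp90b1, Hsph1 and Hspa5) and 2 lower (Hspa1a and Hspa1b), with backgrounds of 4.86% and 6.44%. In HSC/MF-like cells 1 of 55 was higher (Hsph1) and 2 were lower (Hspa1a and Hspa1b), with backgrounds of 5.57% and 4.01%. These shares were near or below the background in both directions. In Kupffer-cell-like cells 2 of 50 were higher, Hsph1 and Dnajb12 (2.02), and 3 lower, Hspa1b, Hspa1a and Hspb8, with backgrounds of 3.83% and 5.31%. In B-cell-like cells 3 of 44 were higher, Hsp90b1 (2.33), Hspb1 (2.03) and Hsp90ab1 (2.01), and 4 lower, Hspa1b, Hspa1a, Dnajb1 and Dnajc19, with backgrounds of 8.34% and 7.5%. In NK/T-cell-like cells 2 of 52 were higher, Dnajc16 (2.13) and Hsp90b1 (2.001), and 4 lower, Hspa1a, Hspa1b, Dnajb1 and Dnajc4 (0.479), with backgrounds of 6.83% and 6.31%. In this class 55 of 9629 genes had a lower ratio than Hspa1a. Set against the erythroid-like level of the fibrosis library, the higher members at or under it were Hsp90b1 and Hspa5 in vessel-endothelial-like cells, Hsph1 in Kupffer-cell-like cells, Hsp90b1 and Hspb1 in B-cell-like cells, both in NK/T-cell-like cells and Hspa4l in endothelial-like cells, and these are counts of captured UMIs not read as expression. In endothelial-like cells Hsp90aa1, at 5.98 [5.84, 6.13] against 5.88 [5.42, 6.37], and Hsp90b1 were above it with overlapping intervals. Hsp90ab1 was close to it there.

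For the remaining classes the largest member ratios are given as values. Some of the fibrosis levels behind them, most of those in neutrophil-like cells, were at or under the erythroid-like level. In hepatocyte-like cells the largest were Hsp90aa1 (6.08), Hspa4l (5.22), Dnajc19 (4.13), Hsp90ab1 (3.00) and Dnajc22 (3.00), and in neutrophil-like cells Hsp90b1 (4.33), Hsp90aa1 (3.27), Dnajb14 (3.16), Hsph1 (2.86) and Hsp90ab1 (2.55). In cholangiocyte-like cells Dnajc17 (0.319), Dnajc12 (0.332), Dnajc4 (0.422) and Hspa1a (0.467) were lower. In PF/mesothelial-like cells the lowest were Dnajc4 (0.422) and Hspa1a (0.492), in pDC-like cells Hspb11 (0.481) was low and Hspa12b (2.64) high, and in DC-like cells Hspa4l (2.01) was high. Among the remaining J-domain members, whose partners and sites of action are varied, Dnajc8, a splicing-associated protein, was at 0.527 to 1.87 over the classes in the normal and 0.740 to 1.48 in the fibrosis library.

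Genes of the same pathways that are not members were taken from lists. Of 18 genes of the unfolded protein response over the floor in endothelial-like cells, 9 were at least 2-fold higher in fibrosis and none lower, against 4.02% and 5.02% of all genes, and their median log2 ratio was 1.03 against 0.062 for all genes. The 9 were the ER proteins Creld2 (4.67), Sdf2l1 (3.89), Pdia6 (3.75), Hyou1 (3.62), Manf (3.52), Pdia4 (2.85), Calr (2.56), Edem1 (2.51) and Canx (2.13). The summed level of the list was 26.0 in normal and 57.3 in fibrosis endothelial-like cells, and 15.1 and 52.0 in erythroid-like cells, so a fibrosis level not far below was also captured in the class taken for background. Of 14 heat shock factors and co-chaperones over the floor, 2 were 2-fold higher, with the same 4.02% of all genes beside it, namely Stip1, which links Hsp70 to Hsp90, at 0.713 and 2.08, and the collagen chaperone Serpinh1 at 1.48 and 4.18. Both were also 2-fold higher in erythroid-like cells, where the median ratio of all genes was 2.01. The summed level of this list was 6.44 and 17.19 in those cells and 11.72 and 20.35 in endothelial-like cells. In endothelial-like cells Hsf1 itself, the regulator of the heat shock response, was at 0.221 and 0.157 (0.714) and Bag3 at 0.670 and 0.93. All 7 subunit genes of the cytosolic chaperonin over the floor had ratios over 1, with a median log2 ratio of 0.66 and none past 2-fold, but their summed fibrosis level of 12.0 was under the 13.7 of erythroid-like cells and is not read as expression.

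Immediate early genes, which respond to dissociation of tissue as well as to injury, were read beside the pair. In endothelial-like cells the summed level of 16 such genes was 94.6 in normal and 112 in fibrosis, with Fos at 8.31 and 9.62, Jun at 13.8 and 11.7 and Egr1 at 8.74 and 8.11, and 1 gene, Nr4a1 (3.08), was past 2-fold. In HSC/MF-like cells the sum was 96.0 and 91.1, while NK/T-cell-like cells had 85.5 and 91.3. As shares of UMIs, these 3 fibrosis sums lie under that of erythroid-like cells, 118 in fibrosis against 30.4 in normal, and are not read as expression. Mean depth was 22888 UMIs in fibrosis HSC/MF-like cells and 1582 in erythroid-like ones, so this comparison leaves the sums undecided. Jun was at 9.84 and 4.93 in NK/T-cell-like, 10.1 and 6.25 in DC-like and 14.0 and 8.01 in pDC-like cells, with these fibrosis levels under the 9.67 of erythroid-like cells. Their part in the pair difference was not tested. The time between perfusion and capture was not analysed here, and handling of the livers cannot be told apart from the treatment, with 1 library in each group.

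Within the libraries, cells were also described by their own pair count after thinning. In normal NK/T-cell-like cells with 0, with 1 to 2 and with at least 3 pair UMIs, Dnajb1 was at 1.91, 2.58 and 4.71, Hsph1 at 1.51, 1.55 and 2.67, and Dnaja1 at 4.64, 5.22 and 8.88. Jun was at 7.17, 11.3 and 15.9 and Fos at 4.16, 5.29 and 6.51 in the same groups. In normal endothelial-like cells Jun was at 12.0, 14.1 and 20.7 and Fos at 7.54, 8.22 and 11.3. In both of these classes Jun and Fos were higher in cells with more pair UMIs, and Dnajb1 and Hsph1 had too few UMIs in the smallest endothelial-like group, of 147 cells, to be read. Normal DC-like cells gave no such order, with Dnajb1 at 1.96, 1.14 and 2.0 and Jun at 9.93, 8.19 and 11.0, and in fibrosis endothelial-like cells with 0 and with 1 to 2 pair UMIs Fos was at 9.83 and 9.85 and Jun at 11.7 and 11.9. Both endothelial-like clusters of the normal library, with pair levels of 5.96 and 7.82, were above both of the fibrosis library, with 2.64 and 3.63.

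Over the 26 points of 13 classes in both libraries, which share library, depth and free RNA, the gene whose log2 level was most like that of the pair was Dnajb1 (Pearson r = 0.77), followed by Imp3 (0.69), Ifi35 (0.66), Leng1 (0.65) and AY036118 (0.65). For Hsph1, genes among the most like were Hsp90ab1 (0.94), Cct3 (0.91), Chordc1 (0.90) and Eif2s3x (0.90). The pair and Hsph1 had r = -0.14 over these points, 0.70 over the 13 classes of the normal library and 0.18 over those of the fibrosis library. These values are descriptions with no test.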

How the data were processed

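The authors made UMI count tables (genes by cell barcodes) from 10x Genomics 3′ v3 libraries with Cell Ranger 3.0.1 and mouse genome mm10, per the labels and the study's methods, and deposited 1 table for each of 2 libraries. Each count is a whole number of captured transcripts. Here cells with over 10% mitochondrial UMIs or with 200 or fewer genes were removed, and the normal and fibrosis libraries were clustered separately with scanpy 1.11.5 (2000 variable genes without members and listed stress genes, 10 principal components, 20 neighbours, Leiden resolution 0.8 with leidenalg 0.10.2). Clusters were named from their top 10 genes and lists of markers, by a scoring rule chosen after the clusters were seen. NK and T clusters were merged, as were portal fibroblast and mesothelial clusters. In all, 254 cells of the normal and 478 of the fibrosis library stayed unnamed. The study's methods state that doublets were excluded with Scrublet. A run of that caller here marked 1 cell in each library and no doublets were removed.

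UMIs were summed over the cells of a class and given per 10000 UMIs. Poisson, conditional and Clopper-Pearson 95% intervals were computed with scipy 1.17.1 and tested on simulated data. Cells are not replicates, so no test was run. Depth was 898 to 75847 UMIs per cell in the normal library and 815 to 116430 in the fibrosis library. Intervals cover counting error only.

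The members and lists were chosen with earlier results of these data known. The genes named in the text are Hspa1a, Hspa1b and Hsph1 in every class, the 20 most abundant members, members past 2-fold (at most 5 in each direction in a class), the highest class of each group and the 5 genes most like the pair and Hsph1. A gene that this rule names is not reported here. Genes of the pathway lists were added to these after their values were seen. Cct6a and Ahsp, which are in the lists, were not analysed here. Promoters are from RefSeq GRCm38.p6, and transcripts from GENCODE. The alternatives tried were other mitochondrial limits, resolutions and floors, clustering with no genes held out, leaving out cells of high doublet score or with the most pair UMIs, and other scalings.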

Additional observations from a re-analysis of the deposited data

Results flagged for a closer look

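Members whose ratio of fibrosis over normal went in opposite directions in different classes were picked out. Dnajc19 had a ratio of 4.13 in hepatocyte-like cells and 0.462 in B-cell-like cells, and Hspb8 had 2.58 in cholangiocyte-like cells and 0.222 in Kupffer-cell-like cells. With 1 library in each group these differences between classes were not tested. The Hspb8 levels behind both ratios, from 13 to 52 UMIs, lie under those of erythroid-like cells and are not read as expression. The normal hepatocyte-like class pools a shallow and a deep cluster. A signal of the pair was also found in the cells that had been removed for over 10% mitochondrial UMIs, in which the pair was at 9.06 UMIs per 10000 in normal and 1.8 in fibrosis.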

How the results depend on the processing

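Of 66 alternative values, 47 stayed within the 95% counting interval of the main value (for counts of members, within 1.5 times), 19 moved further and 0 reversed. The ratio of the pair in endothelial-like cells, 0.46, was 0.539 with a mitochondrial limit of 5%, 0.516 at resolution 1.5, 0.565 without the top 5% of cells by doublet score, 0.548 with no genes held out of clustering, 0.659 as UMIs per cell and 0.441 when centred on all genes. The Hsph1 ratio there was 5.31 per cell. The pair UMIs for each Hsph1 UMI in normal endothelial-like cells were 12.5 without high doublet scores and 11.8 with no genes held out. The pair ratio in B-cell-like cells was 0.118 per cell and 0.12 without the 3 cells of each library with the most pair UMIs, and in Kupffer-cell-like cells 0.153 at resolution 1.5, 0.172 with no genes held out and 0.42 per cell. Per cell, 16 members instead of 7 were 2-fold higher in endothelial-like cells. The 2 members that were 2-fold lower became 0 with the 5% limit, 1 without high doublet scores, 0 per cell and 1 at a floor of 0.5. These causes were not tested. The class was not found in both libraries, so that no value was given, for B-cell-like cells with the 5% limit and at resolution 0.4, and for Kupffer-cell-like cells at resolution 0.4 and without high doublet scores. Keeping cells of at least 3000 UMIs, an alternative chosen after seeing the data, left all 7 results within these limits. Leaving out the 1 cell with the most pair UMIs in each class and library, also chosen after seeing the data, moved the DC-like ratio from 0.190 to 0.130. No paired analysis was possible because each group has 1 library and no test was run, and the shallow classes limit what ratios can show.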
